A study of Mus musculus with 6 samples.

Results

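The interferon response genes described here are 81 of the 19176 genes in the expression table of the series, chosen by symbol. They are the genes of the Ifi, Ifit, Ifitm, Ifn, Oas, Gbp, Irf, Mx, Isg, Irgm, Iigp and Stat families. RNA was sequenced from the renal cortex of 6 male C57BL/6J mice without any genetic change, 8 weeks old when bought. All 6 mice had the left renal pedicle clamped and released (unilateral ischemia-reperfusion injury, UIRI), and the right kidney was removed the day before tissue was taken on day 14. Mice of the UIRI group (n = 3) received vehicle, and mice of the UIRI + BA group (n = 3) received Bruceine A (BA; "brucine A" in the library labels) by intraperitoneal injection at 1 mg/kg each day. BA is a quassinoid, a bitter plant compound of Brucea fruit. Each library came from 1 mouse. Sham kidneys were not analysed here, so every difference is UIRI + BA against UIRI.

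Interferons are secreted proteins that cells release on infection or tissue damage. Type I interferons bind the IFNAR1/IFNAR2 receptor, type III interferons bind a receptor that contains IFNLR1, and interferon gamma, the type II interferon made by T cells and natural killer cells, binds IFNGR1/IFNGR2. Receptor-bound Janus kinases phosphorylate STAT proteins. Phosphorylated STAT proteins form, with IRF9, a complex that binds the interferon-stimulated response element (ISRE) in promoters, whereas STAT dimers bind the gamma-activated site (GAS). In injured kidney both infiltrating leukocytes and tubular cells can express such genes.

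Of the 81 genes, 58 (71.6%) had a log2 fold change below 0 with BA, compared with 51.1% of all genes in the table. Over the 81 genes the median log2 fold change was -0.20, and over all genes it was -0.01. No interferon response gene passed an adjusted p of 0.05 in limma on log2 values, where 0% of all genes passed and the smallest adjusted p of the table was 0.225. At an unadjusted p below 0.05 limma listed 12 of the 81, of which 11 were lower with BA (13.6%, compared with 4.61% of all genes) and 1 was higher (5.67% of all genes were higher at that threshold). The 11 lower genes were Ifit3, Ifit3b, Ifitm1, Ifitm2, Ifitm3, Isg15, Isg20, Ifi44, Ifi204, Ifi208 and Ifi211, all effector genes of the response. In bulk tissue such a difference can come from fewer cells of a type or from less RNA per cell, which cannot be told apart. The count of 11 became 7 without UIRI replicate 1, 6 without UIRI replicate 2 and 42 without UIRI replicate 3, and DESeq2 on the recovered reads gave 17. The count over all 19176 genes moved as well. In either direction it was 1971 with all libraries, 808 without UIRI replicate 1, 1339 without UIRI replicate 2, 4838 without UIRI replicate 3 and 1511 in DESeq2.

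In 8 genes (9.88%) all 3 UIRI + BA libraries lay below all 3 UIRI libraries, where 6.96% of all genes did so. These were Ifit3, Ifit3b, Ifitm5, Ifitm6, Isg15, Isg20, Ifi44 and Ifi214. In 1 gene they lay above without overlap, a pattern held by 7.45% of all genes. Leaving out UIRI replicate 3 made the count of 8 into 47, and leaving out UIRI + BA replicate 1 made it 15. The count of 1 was 14 without UIRI + BA replicate 3, 4 without UIRI replicate 2, 3 without UIRI replicate 3 and 2 without UIRI replicate 1. A count of genes without overlap can only stay or rise when a library is left out. The share of all genes is not given for these counts, so the rises have no baseline. With 3 libraries against 3, the exact two-sided permutation test of a single gene cannot give a p below 0.1.

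One control library stood apart. UIRI replicate 3 held 38124164 reads on genes, 2.04 times the median of the other 5 libraries, and the lowest total was 16510720. On the first principal component of all genes (41.8% of the variance) the scores were -32.5 and -25.5 for UIRI replicates 1 and 2, 11.1 for UIRI replicate 3, and 30.5, 3.11 and 13.4 for UIRI + BA. UIRI replicate 3 was the lowest of the 3 UIRI libraries in 69 of the 81 interferon response genes (85.2%), whereas it was lowest in 39.9% of all genes. In 63 of these 69 it was at or below the highest UIRI + BA library. Marker genes describe the tissue but cannot show that it was cortex alone. The 12 proximal tubule markers were read in every library. Thick limb markers summed to 26935 to 43485 in UIRI and 32746 to 46132 in UIRI + BA. Collecting duct markers summed to 2808 to 3446 in UIRI and 2607 to 3947 in UIRI + BA. Urothelium markers summed to 722 in UIRI replicate 3 and 447 in UIRI + BA replicate 3, compared with 86.4 to 224 in the other 4 libraries. Which parts of the kidney each library held was not tested.

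Without UIRI replicate 3, limma gave an adjusted p below 0.05 for 21 of the 81 genes, whereas leaving out any other library gave 0. Of these, 20 fell with BA (24.7%, compared with 1.79% of all genes) and 1 rose (3.22% of all genes were called higher). At an unadjusted p below 0.05, 42 genes were lower (51.9%, compared with 11.5% of all genes) and 2 were higher (13.7% of all genes). The 81 genes then had a median of -0.34, and all genes one of -0.01. UIRI replicate 3 was the lowest UIRI library in 69 of the 81 genes, so leaving it out had to lower their log2 fold changes. The counts and adjusted p-values without it, also those of single genes below, follow from that choice. They are not separate evidence of a lower level with BA. DESeq2 on the recovered reads of all 6 libraries gave 2 genes at an adjusted p below 0.05, both lower (0.349% of the genes with an adjusted p were lower), namely Ifit3 at an adjusted p of 0.00269 and Isg15 at an adjusted p of 0.0442. DESeq2 gave no adjusted p to 9 of the 81 genes. edgeR's quasi-likelihood test on the same reads gave 0 genes at an adjusted p below 0.05, with 13 lower and 1 higher at an unadjusted p below 0.05. Of the 17155 genes that edgeR tested, 1703 were at that unadjusted threshold in either direction.

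**Figure D1:**
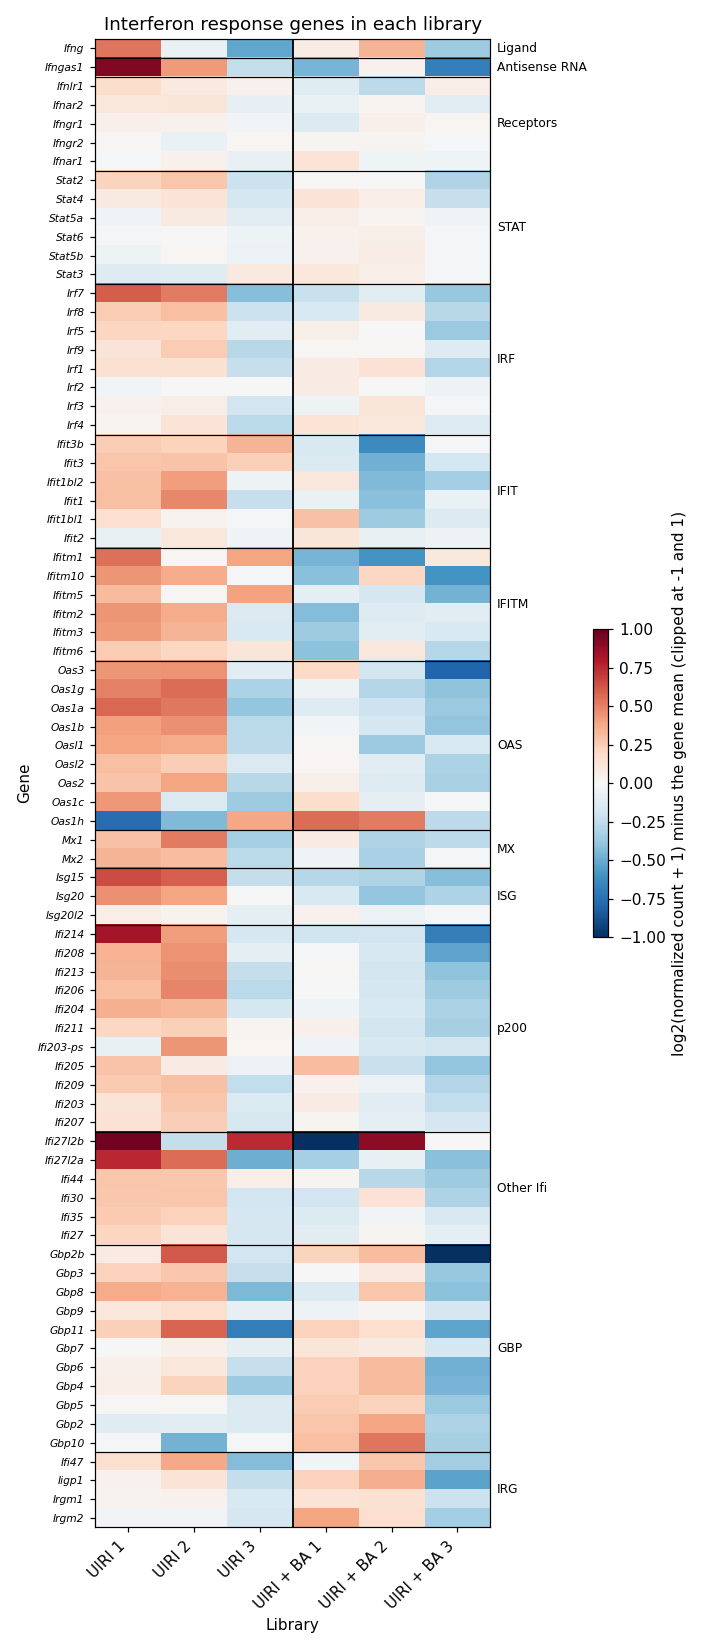
Level of 79 of the 81 interferon response genes (rows, grouped by role) in each of the 6 libraries (columns), as log2 of the normalized count plus 1 minus the mean of that gene over the libraries. In the IFIT to other Ifi blocks UIRI replicates 1 and 2 are mostly red and UIRI replicate 3 is often pale or blue. Most rows of the GBP and IRG blocks are red in UIRI + BA replicates 1 and 2 and blue in UIRI + BA replicate 3.

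Promoter sequences are shown for the 4 genes with the smallest p among those with a motif, because their promoters hold the letters through which interferon-activated factors are known to bind. Each is the 250 bases before the start of the gene in the RefSeq promoter table (GRCm38.p6), 5′ to 3′ on the strand of the gene, with the motif in capitals. Capitals in Ifit3, Ifit3b and Isg15 mark the ISRE core GAAANNGAAA, which reads TTTCNNTTTC on the other strand, and in Isg20 the GAS core TTCNNNGAA. The windows are chr19:34583279-34583528 (plus strand) for Ifit3, chr19:34607707-34607956 (plus strand) for Ifit3b, chr4:156200819-156201068 (minus strand) for Isg15 and chr7:78913174-78913423 (plus strand) for Isg20.
Ifit3: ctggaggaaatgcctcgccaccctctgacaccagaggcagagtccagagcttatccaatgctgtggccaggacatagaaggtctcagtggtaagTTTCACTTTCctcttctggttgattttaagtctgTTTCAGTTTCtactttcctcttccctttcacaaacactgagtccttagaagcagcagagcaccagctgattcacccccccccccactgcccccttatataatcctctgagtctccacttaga
Ifit3b: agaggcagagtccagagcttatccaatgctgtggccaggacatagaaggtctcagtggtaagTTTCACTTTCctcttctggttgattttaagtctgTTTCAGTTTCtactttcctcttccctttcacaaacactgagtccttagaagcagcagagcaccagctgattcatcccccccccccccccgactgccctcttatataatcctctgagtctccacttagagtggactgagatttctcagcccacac
Isg15: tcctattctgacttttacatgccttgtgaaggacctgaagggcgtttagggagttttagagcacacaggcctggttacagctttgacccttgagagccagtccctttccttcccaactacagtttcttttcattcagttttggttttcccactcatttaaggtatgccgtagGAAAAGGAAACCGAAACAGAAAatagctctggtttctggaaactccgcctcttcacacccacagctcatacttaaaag
Isg20: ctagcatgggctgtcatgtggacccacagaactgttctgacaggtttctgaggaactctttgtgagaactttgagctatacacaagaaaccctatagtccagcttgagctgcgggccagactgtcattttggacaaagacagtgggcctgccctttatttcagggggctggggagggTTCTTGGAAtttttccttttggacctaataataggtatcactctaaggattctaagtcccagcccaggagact

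The Ifit3 window held the ISRE core at 156 to 147 and at 122 to 113 bases before the start, and the Ifit3b window held the same letters at 188 to 179 and at 154 to 145 bases. The longest run of bases that both windows share was 169, so these neighbouring genes are near copies also outside their coding parts. Isg15 held 3 overlapping ISRE cores, at 78 to 69, 72 to 63 and 66 to 57 bases before the start. The Isg20 window held no ISRE core, and its GAS core lay at 73 to 65 bases. A match describes the letters of the window and does not show that a factor was bound.

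Of the 81 genes, 63 were matched to the promoter table, with 78 windows of 300 bases (250 before and 50 after the start). The ISRE core was found on either strand in 30 of the 63 (47.6%), compared with 1079 of 27025 genes (3.99%). The GAS core, which reads the same on both strands, was found in 15 of the 63 (23.8%), compared with 2582 of 27025 genes (9.55%). By family the ISRE core stood in 5 of 6 IFIT genes, 8 of 9 p200 genes, 4 of 7 OAS genes, 5 of 5 GBP genes and 2 of 3 IRG genes, but in 2 of 6 IFITM genes, 1 of 8 IRF genes and 0 of 5 receptor genes. The core was held by 7 of 10 genes that were lower at an unadjusted p below 0.05, by 16 of 35 other genes with a log2 fold change below 0 and by 7 of 18 genes with one above 0. It stood in 7 of 8 GBP and IRG genes and in 20 of 34 genes of the other effector families, although those sets had different values with BA, given with each family. These counts are descriptions and were not tested.

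The single ligand gene in the table was Ifng, which encodes interferon gamma. Its normalized counts (reads divided by the size factor of the library) were 12.5, 7.87 and 5.48 in the UIRI libraries, always given in the order of replicates 1 to 3, with 8.77, 10.8 and 6.26 for UIRI + BA. The groups overlapped fully at this low level, and the mean was 8.60 in both, with an SD of 3.55 in UIRI and 2.26 in UIRI + BA (n = 3 each). Ifngas1, a long noncoding RNA transcribed on the other strand near Ifng, was measured at 14.7, 10.1 and 6.02 in UIRI and at 5.01, 7.54 and 4.17 in UIRI + BA. Its log2 fold change was -0.74 with a standard error of 0.43, on 4 to 13 reads per library.

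The 5 receptor genes varied little between libraries, and none had an unadjusted p below 0.05. Ifngr1, which encodes the ligand-binding chain of the interferon gamma receptor, was the most abundant of them per length, at 1531 normalized counts per kb of exon in UIRI and 1489 in UIRI + BA. Its normalized counts were 4441, 4425 and 4208 in UIRI, with 3915, 4451 and 4348 in UIRI + BA, and the log2 fold change was -0.04 ± 0.08 (standard error, here and in all log2 fold changes). Ifngr2, the signaling chain, was measured at 2504, 2374 and 2524 in UIRI and at 2528, 2526 and 2455 in UIRI + BA. The libraries of both groups interleave for both chains. For the type I receptor, Ifnar1 was measured at 2193, 2292 and 2111 in UIRI and at 2448, 2160.3 and 2158 in UIRI + BA. Ifnar2 gave 1716, 1732 and 1504 in UIRI, with 1519.6, 1622 and 1469 in UIRI + BA, again overlapping, and its log2 fold change was -0.10 ± 0.08. Ifnlr1, the type III receptor chain known from epithelium, had the lowest value of the 5, with a log2 fold change of -0.21 ± 0.11. Its normalized counts were 338, 319 and 308 in UIRI, with 276, 249.8 and 313 in UIRI + BA, where UIRI + BA replicate 3 alone reached the UIRI range.

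Among the 7 STAT genes, the transcription factors downstream of the receptors, 3 had a log2 fold change below 0 and 4 above, with a median of 0.04, and none had an unadjusted p below 0.05. Stat2, which signals for the type I and type III receptors, was measured at 2389, 2481 and 1763 in UIRI and at 2069.5, 2057 and 1669 in UIRI + BA (log2 fold change -0.19 ± 0.14). Replicate 3 was the lowest library within each group. Stat6, the main factor of interleukin 4 signaling and the STAT gene with the highest level per length, gave 3478, 3519 and 3412 in UIRI, with 3632, 3676 and 3497 in UIRI + BA. Its log2 fold change was 0.05 ± 0.07.

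The 9 interferon regulatory factors (IRF) split, with 5 below 0 and 4 above 0 and a median of -0.05. Irf7, which drives type I interferon genes and is itself an interferon-stimulated gene, was measured at 1920.3, 1811 and 938 in UIRI and at 1079.9, 1173 and 968 in UIRI + BA. UIRI replicates 1 and 2 lay above all UIRI + BA libraries and UIRI replicate 3 lay below all of them. The log2 fold change was -0.47 ± 0.24 with all libraries (limma, adjusted p = 0.527) and -0.80 without UIRI replicate 3 (limma, adjusted p = 0.00625). It ran from -0.80 to -0.28 when any 1 library was left out. Irf9, a DNA-binding partner of STAT2, was measured at 2281, 2491 and 1720.2 in UIRI and at 2109.6, 2105 and 1904 in UIRI + BA. Irf1, an early factor induced by interferon gamma, gave 2293, 2289 and 1762 in UIRI, with 2184, 2281 and 1681 in UIRI + BA. Their log2 fold changes were -0.07 ± 0.13 and -0.05 ± 0.14, smaller than the spread within groups.

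The effector genes, grouped by symbol, are given here in 2 sets of families. Many of their proteins act on viruses, viral RNA or intracellular pathogens, but not all do, as with Isg20l2 and Ifi30. In the IFIT, IFITM, OAS, MX, ISG, p200 and other Ifi families, 40 of 43 genes had a log2 fold change below 0, with a median of -0.37, and they included all 11 genes that were lower at an unadjusted p below 0.05. In the guanylate-binding proteins (GBP) and immunity-related GTPases (IRG), 6 of 15 had a log2 fold change below 0, with a median of 0.04, and none had an unadjusted p below 0.05. Without UIRI replicate 3 the medians were -0.51 and -0.07, and limma gave an adjusted p below 0.05 to 19 of the 43 and to 0 of the 15, where 3 of the 15 had an unadjusted p below 0.05. All of these were lower with BA. In that fit 1.79% of all genes were lower at an adjusted p below 0.05 and 11.5% at an unadjusted p below 0.05. The difference between these sets was not tested, and the split was made with the values known.

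**Figure D2:**
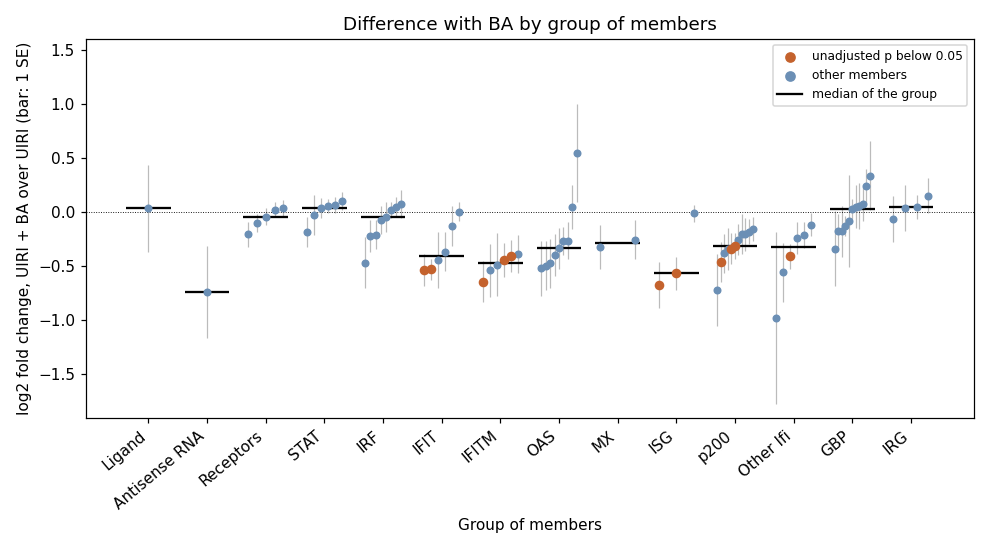
Log2 fold change, UIRI + BA over UIRI (vertical axis), of 79 of the 81 genes by group of members (horizontal axis), with 1 standard error of limma as bars and the median of all genes of a group as a black line. The medians of IFIT, IFITM, OAS, MX, ISG, p200 and other Ifi genes lie between -0.57 and -0.29, and those of receptors, STAT, IRF, GBP and IRG genes between -0.05 and 0.04.

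IFIT proteins bind viral RNA that lacks the cap methylation of host RNA. Ifit3 had the smallest p of the 81 genes. Its normalized counts were 2367, 2382 and 2303 in UIRI, with 1773, 1405 and 1736 in UIRI + BA, so that the lowest UIRI library was well above the highest UIRI + BA library, and UIRI replicate 3 did not stand apart. The log2 fold change was -0.53 ± 0.10 (limma, adjusted p = 0.225), and leaving out any 1 library gave -0.59 to -0.42. Ifit3b, its near copy at chr19:34607970-34613401 (GRCm38, GENCODE M21), was measured at 795, 784 and 852 in UIRI and at 606, 433 and 662 in UIRI + BA, which is a log2 fold change of -0.54 ± 0.15 (limma, adjusted p = 0.309). Reads of such close copies may be split between them in the counting, which leaves the share of each uncertain.

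The 6 IFIT genes lie between Ifit2 and Ifit1, from base 34550694 to base 34650009 of chromosome 19, and the others of this stretch did not all have such values. Ifit1, whose protein binds uncapped or undermethylated RNA, was measured at 739.8, 837 and 512 in UIRI and at 575, 449 and 573 in UIRI + BA, which is a log2 fold change of -0.37 ± 0.18. Its only UIRI library within the UIRI + BA range was replicate 3. Without it the log2 fold change was -0.57 (limma, adjusted p = 0.0363), and leaving out any 1 library gave -0.57 to -0.22. Ifit2 gave 1809, 2062 and 1845 in UIRI, with 2076, 1809 and 1843 in UIRI + BA, and its log2 fold change was 0.00 ± 0.09. The libraries of both groups interleaved for Ifit2. Ifit1bl1 and Ifit1bl2 were measured at lower levels, with log2 fold changes of -0.13 and -0.44.

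IFITM proteins sit in membranes and hinder the entry of enveloped viruses, and all 6 IFITM genes had a log2 fold change below 0 (median -0.47). Ifitm3 was the most abundant of the 81 genes per length, at 9234 normalized counts per kb of exon in UIRI and 6875 in UIRI + BA. Its normalized counts were 7209, 6762 and 4812 in UIRI, with 4194, 4963 and 4827 in UIRI + BA (log2 fold change -0.41 ± 0.15; limma, adjusted p = 0.425). Ifitm2 was measured at 1251, 1197 and 835 in UIRI and at 683, 843 and 858 in UIRI + BA (log2 fold change -0.45 ± 0.16; limma, adjusted p = 0.423). In both genes UIRI replicate 3 lay within the UIRI + BA range, and without it the adjusted p in limma was 0.0125 for Ifitm3 and 0.0188 for Ifitm2. With any 1 library left out the log2 fold change was -0.59 to -0.30 for Ifitm3 and -0.63 to -0.34 for Ifitm2. Ifitm1 had the largest difference of the family, -0.64 ± 0.19 on the log2 scale (limma, adjusted p = 0.351). It was measured at 996, 689 and 893 in UIRI and at 491, 449 and 729 in UIRI + BA, where UIRI replicate 2 and UIRI + BA replicate 3 overlapped. Ifitm6, a gene of myeloid cells, gave 102, 99.0 and 93.1 in UIRI, with 63.9, 92.6 and 69.9 in UIRI + BA. Ifitm5, known from bone, gave 17.0, 13.5 and 18.1 in UIRI, with 12.5, 11.8 and 9.39 in UIRI + BA, on 9 to 33 reads per library. Both were without overlap and had a limma unadjusted p above the threshold.

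**Figure D3:**
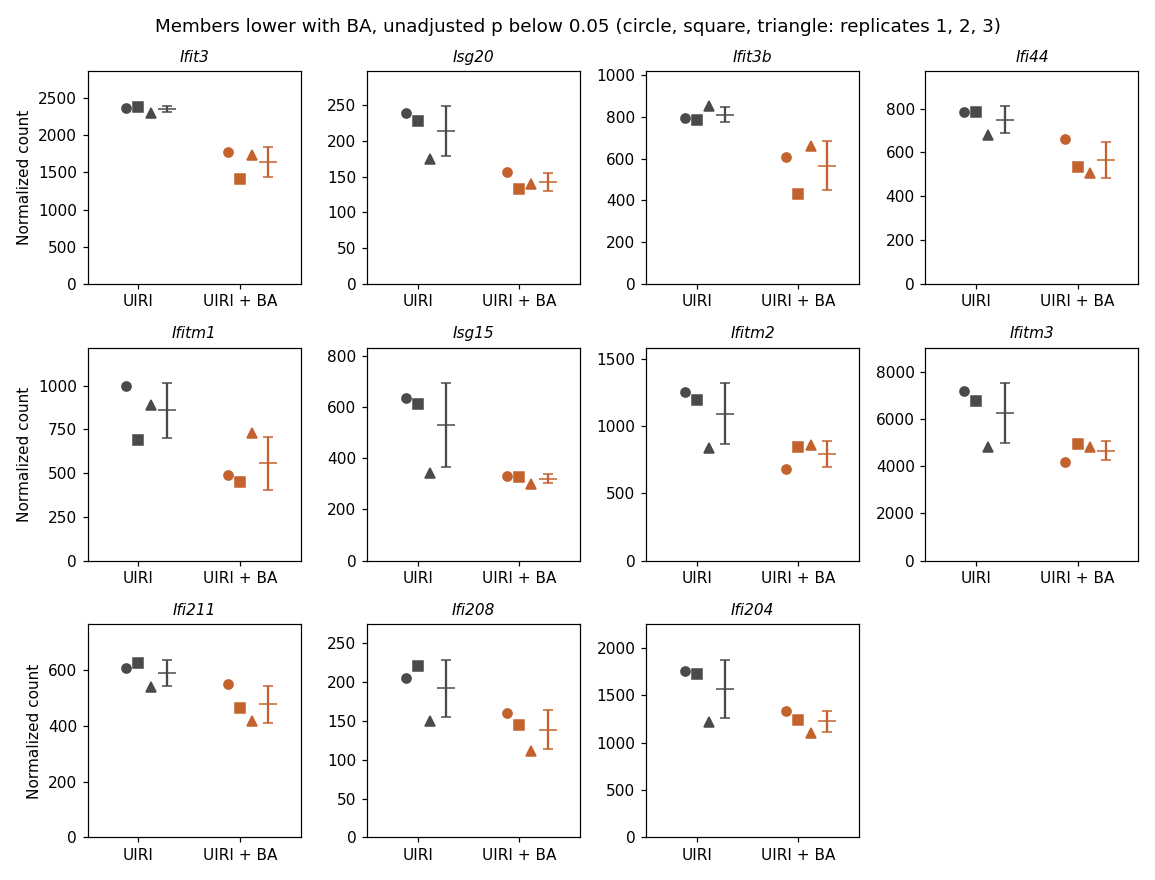
Normalized counts in the 3 UIRI and 3 UIRI + BA libraries for the 11 genes that were lower at an unadjusted p below 0.05 in limma, 1 panel a gene, with the mean and SD of each group beside the points. UIRI replicate 3 (triangle) sits near the UIRI + BA libraries for Isg15, Ifitm2, Ifitm3 and Ifi204 and with the other UIRI libraries for Ifit3 and Ifit3b.

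The ISG group holds 3 genes. Isg15 encodes a ubiquitin-like protein that is joined to other proteins in interferon-treated cells. Its normalized counts were 636, 613 and 342 in UIRI, with 332, 328 and 301 in UIRI + BA, which is a log2 fold change of -0.67 ± 0.21 (limma, adjusted p = 0.370). UIRI replicate 3 lay just above the highest UIRI + BA library. Without it the log2 fold change was -0.96 (limma, adjusted p = 0.00406), and leaving out any 1 library gave -0.96 to -0.52. Isg20, an exonuclease that degrades viral RNA, was measured at 239, 228 and 174 in UIRI and at 157, 132 and 139.8 in UIRI + BA, also without overlap (log2 fold change -0.57 ± 0.15; limma, adjusted p = 0.299). Isg20l2, a ribosome biogenesis exonuclease named after it, had a log2 fold change of -0.01 ± 0.08.

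The OAS genes are named after enzymes that make oligoadenylates when they bind double-stranded RNA. Of the 9 OAS genes, 7 had a log2 fold change below 0 (median -0.34), and none had an unadjusted p below 0.05. Oas1a, the most abundant of them per length, was measured at 892, 865 and 458 in UIRI and at 547, 520.2 and 462 in UIRI + BA. UIRI replicates 1 and 2 were far above the UIRI + BA libraries, and UIRI replicate 3 was below all of them. The log2 fold change was -0.47 ± 0.23 with all libraries (limma, adjusted p = 0.515) and -0.79 without UIRI replicate 3 (limma, adjusted p = 0.00698). It ran from -0.79 to -0.31 when any 1 library was left out. In 8 of the 9 OAS genes UIRI replicate 3 was the lowest UIRI library, and without it 6 of the 9, Oas1a, Oas1b, Oas1g, Oas2, Oasl1 and Oasl2, fell at an adjusted p below 0.05. In that fit 1.79% of all genes were lower at an adjusted p below 0.05. Oas1h was at the lower end of detection, with 3 to 16 reads per library. Apart from Oasl1 and Oasl2 the OAS genes lie together, from base 120730333 to base 120907521 of chromosome 5. The Oas1 genes among them belong to the same family and their sequences were not compared, so the share of reads of each is uncertain. Oas1b is annotated as a polymorphic pseudogene, and enzyme activity was not measured for any of the genes.

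Mx1 and Mx2 belong to a family of dynamin-like GTPases that block viral nucleocapsids, and both were below 0. Mx2 is annotated as a polymorphic pseudogene, and whether either gene gives a working protein in these mice was not tested. Mx1 was measured at 619, 721 and 401 in UIRI and at 532, 408 and 421 in UIRI + BA, which is a log2 fold change of -0.32 ± 0.20 (limma, adjusted p = 0.594). UIRI replicate 3 was again the lowest of all 6 libraries. Without it the log2 fold change was -0.57 (limma, adjusted p = 0.0429), and leaving out any 1 library gave -0.57 to -0.14. Mx2 had a log2 fold change of -0.25 ± 0.18.

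The p200 genes of chromosome 1 (Ifi203 to Ifi214) encode DNA-binding proteins related to the DNA sensor AIM2, and all 11 had a log2 fold change below 0, between -0.72 and -0.16. Ifi211 was measured at 611, 625 and 539 in UIRI and at 550.0, 465 and 419 in UIRI + BA (log2 fold change -0.31 ± 0.12; limma, adjusted p = 0.442). For Ifi208 the values were 205, 220.5 and 151 in UIRI, with 160.3, 144 and 112 in UIRI + BA (log2 fold change -0.46 ± 0.19; limma, adjusted p = 0.465). Ifi204, a sensor of cytosolic DNA in macrophages, gave 1762, 1729.9 and 1217 in UIRI, with 1333, 1239.5 and 1105 in UIRI + BA (log2 fold change -0.34 ± 0.14; limma, adjusted p = 0.473). In these 3 genes the lowest UIRI library, replicate 3, lay among the UIRI + BA libraries. Ifi203, the most abundant of the family per length, was measured at 3152, 3477 and 2624 in UIRI and at 3044, 2672 and 2430.3 in UIRI + BA, which is a log2 fold change of -0.18 ± 0.12. Ifi214 had the largest difference, -0.72 ± 0.33, without overlap but on 10 to 28 reads per library. The 11 genes lie from base 173468485 to base 174031810 of chromosome 1, and Ifi203-ps is annotated as an unprocessed pseudogene. Reads may be split among genes of like sequence, but the sequences of these genes were not compared.

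The other Ifi genes are unrelated to each other apart from the Ifi27 genes, and all 6 had a log2 fold change below 0 (median -0.32). Ifi44, a GTPase-like protein of unclear function, was measured at 786, 784 and 679.6 in UIRI and at 660.2, 535 and 506 in UIRI + BA, without overlap (log2 fold change -0.41 ± 0.12; limma, adjusted p = 0.332). Ifi27l2a, a small mitochondrial protein and the second most abundant of the 81 genes per length, was measured at 2747, 2396 and 1160.5 in UIRI and at 1289, 1541 and 1214 in UIRI + BA. Per kb of exon its mean was 4538 normalized counts in UIRI and 2911 in UIRI + BA, although UIRI replicate 3 was the lowest of all 6 libraries. Its log2 fold change was -0.55 ± 0.27 with all libraries (limma, adjusted p = 0.520) and -0.94 without UIRI replicate 3 (limma, adjusted p = 0.00662). It ran from -0.94 to -0.31 when any 1 library was left out. Ifi30, a thiol reductase of antigen processing that antigen-presenting cells express, had a log2 fold change of -0.24 ± 0.15. Ifi27l2b was read 0 to 14 times per library, and its log2 fold change of -0.98 had a standard error of 0.80.

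GBP and IRG proteins are GTPases that act on the vacuoles of intracellular pathogens and are known as genes induced by interferon gamma. Gbp2, the most abundant GBP gene per length, was measured at 1985, 2009 and 1964 in UIRI and at 2611, 2829 and 1736 in UIRI + BA. The UIRI libraries had a mean of 1986 ± 22.5 (SD, n = 3), whereas UIRI + BA replicates 1 and 2 lay above and replicate 3 below them (log2 fold change 0.24 ± 0.16; limma, adjusted p = 0.611). Irgm1, the most abundant IRG gene per length, was measured at 3521, 3548 and 3083 in UIRI and at 3771, 3812 and 2963 in UIRI + BA (log2 fold change 0.05 ± 0.11; limma, adjusted p = 0.886). Its values also put UIRI + BA replicates 1 and 2 highest and UIRI + BA replicate 3 lowest. Irgm2 gave 1492, 1498 and 1358 in UIRI, with 2007, 1714 and 1203 in UIRI + BA. Iigp1 gave 2605, 2765 and 2145 in UIRI, with 2959, 3256 and 1738 in UIRI + BA. In both genes UIRI + BA replicates 1 and 2 were above UIRI + BA replicate 3, which was the lowest of the 6 libraries. The log2 fold changes of the 11 GBP genes ran from -0.34 (Gbp2b) to 0.34 (Gbp10), and those of the 4 IRG genes ran from -0.06 (Ifi47) to 0.15 (Irgm2).

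Both sets were also described by their mean level per library, taken as the mean over its genes of the log2 deviation from the gene mean (genes with a mean of 10 or more). The 41 effector genes outside GBP and IRG stood at 0.33, 0.31 and -0.11 in UIRI and at -0.06, -0.19 and -0.28 in UIRI + BA. UIRI replicate 3 thus lay between UIRI + BA replicates 1 and 2. The 14 GBP and IRG genes stood at 0.07, 0.12 and -0.21 in UIRI and at 0.16, 0.25 and -0.40 in UIRI + BA, so that replicate 3 was lowest in each group and UIRI + BA replicates 1 and 2 were highest. The difference of both means was 0.26, 0.19 and 0.10 in UIRI, with -0.22, -0.45 and 0.12 in UIRI + BA, where UIRI + BA replicate 3 lay within the UIRI range.

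**Figure D4:**
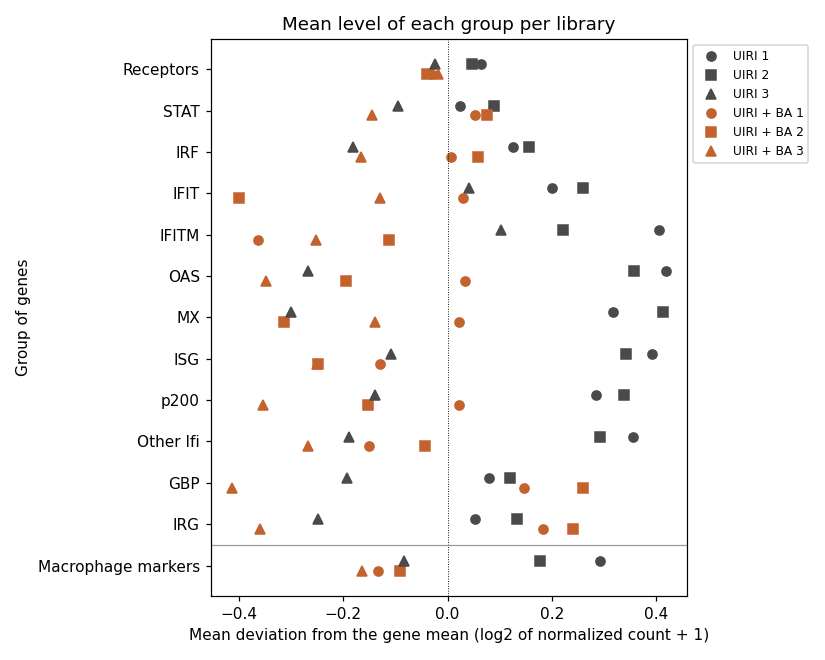
Mean log2 deviation from the gene mean (horizontal axis) of each family of interferon response genes and of the macrophage markers (rows) in each of the 6 libraries, with 1 point a library, grey for UIRI and orange for UIRI + BA. UIRI replicates 1 and 2 lie to the right in the rows from IFIT to other Ifi, and UIRI + BA replicates 1 and 2 lie to the right in the GBP and IRG rows.

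All 13 macrophage markers had a log2 fold change below 0 (median -0.26), and 0 passed the adjusted p in limma with all libraries. An unadjusted p below 0.05 was reached by 4 of them, where 4.61% of all genes were lower. Without UIRI replicate 3 it was reached by 12, where 11.5% of all genes were lower. The summed level of the markers was 103339 to 145963 normalized counts in UIRI and 98217 to 112822 in UIRI + BA, and none was at 0 in any library. Per library the macrophage markers stood at 0.29, 0.18 and -0.08 in UIRI and at -0.13, -0.09 and -0.16 in UIRI + BA on the log2 deviation scale, with the same UIRI library apart as in the effector genes. The effector genes minus the macrophage markers gave 0.04, 0.13 and -0.03 in UIRI, with 0.07, -0.10 and -0.11 in UIRI + BA, which overlap.

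Of the 4 neutrophil markers in the table, 3 were lower at an unadjusted p below 0.05 (median -0.73), with sums of 1383 to 1901 in UIRI and 1104 to 1250.3 in UIRI + BA. Of the 7 dendritic and plasmacytoid cell markers, 1 was lower (median -0.26), with sums of 2597 to 3399 in UIRI and 2419.8 to 2884 in UIRI + BA. T cell, natural killer cell and B or plasma cell markers, 11, 8 and 7 genes, had medians of -0.08, -0.08 and -0.22 and 0 at an unadjusted p below 0.05 in limma. Of the 8 fibroblast markers, 5 were lower (median -0.33). Of the 12 proximal tubule markers, 10 were higher at that threshold (median 0.71), with sums of 49238 to 60753 in UIRI and 64085 to 116057 in UIRI + BA. Over all genes 4.61% were lower and 5.67% were higher at an unadjusted p below 0.05 in limma. The part of cell content in the effector values was not tested.

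Of 84 genes of the interferon pathway outside the chosen families, 63 had a log2 fold change below 0 (median -0.08), compared with 51.1% of all genes. At an unadjusted p below 0.05 limma gave 9 lower (10.7%, compared with 4.61% of all genes) and 1 higher (5.67% of all genes). The adjusted p in limma was passed by 0 of the 84 genes. DESeq2 gave 15 and edgeR 13 of them at an unadjusted p below 0.05, where DESeq2 gave 1511 of 19176 and edgeR 1703 of 17155 genes in all. The count of 10 was 3 without UIRI replicate 1, 5 without UIRI replicate 2 and 38 without UIRI replicate 3. In these 3 fits 808, 1339 and 4838 of all 19176 genes were at that threshold in either direction. Of those 38, 35 were lower, and in that fit 11.5% of all genes were lower and 13.7% were higher. Of the 39 antiviral effectors on this list, 35 had a log2 fold change below 0 (median -0.14). Ddx60, a helicase that promotes RNA sensing, was measured at 605, 643 and 474 in UIRI and at 412, 433 and 364 in UIRI + BA, without overlap (log2 fold change -0.50 ± 0.13; limma, adjusted p = 0.291). Rtp4, Epsti1 and Uba7 (the activating enzyme for ISG15) had log2 fold changes of -0.44, -0.36 and -0.26.

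Feedback inhibitors were among the 9 signaling genes. Socs3, an inhibitor of Janus kinases, was measured at 1829.6, 1844 and 2089 in UIRI and at 1493, 1688 and 1177 in UIRI + BA (log2 fold change -0.42 ± 0.13; limma, adjusted p = 0.359). UIRI replicate 3 was the highest library for Socs3, unlike for most effector genes. Usp18, which removes ISG15 from proteins and damps the type I receptor, was measured at 410.1, 395 and 271 in UIRI and at 282, 247 and 266 in UIRI + BA (log2 fold change -0.41 ± 0.16; limma, adjusted p = 0.448). The kinase genes Jak1, Jak2 and Tyk2 had log2 fold changes of 0.05, -0.02 and -0.09. Of 15 nucleic acid sensing genes in the table, 2 were lower at an unadjusted p below 0.05, Aim2 at -0.29 and Tlr7 at -0.22.

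The 21 genes listed as induced by interferon gamma, though not by it alone, had a median log2 fold change of -0.02, with 0 lower and 1 higher at an unadjusted p below 0.05 in limma. Without UIRI replicate 3 the median was -0.14, with 6 lower and 1 higher, where 11.5% of all genes were lower and 13.7% were higher. Vcam1, an adhesion molecule that injured tubule cells also express, was higher, at 13846, 15765 and 12595 in UIRI and at 17766, 17781 and 17980.2 in UIRI + BA (log2 fold change 0.35 ± 0.10; limma, adjusted p = 0.311). The 9 injured tubule markers, Vcam1 among them, were split, with 3 lower and 3 higher at an unadjusted p below 0.05 in limma (median 0.12). The chemokine gene Cxcl10 and the GTPase gene Tgtp1 had log2 fold changes of 0.39 ± 0.17 and 0.50 ± 0.23, neither with an unadjusted p below 0.05. For Cxcl10 the values were 844, 965 and 838 in UIRI, with 1522, 1156 and 873 in UIRI + BA, where UIRI + BA replicate 3 lay within the UIRI range.

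**Figure D5:**
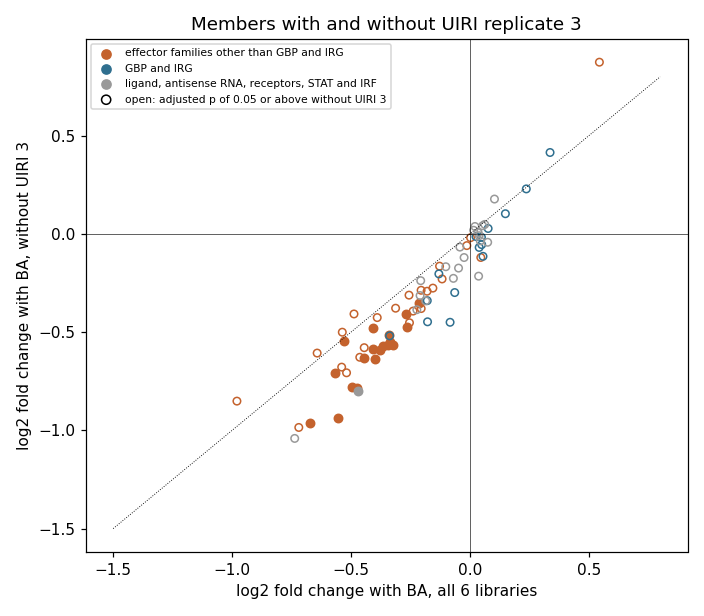
Log2 fold change with BA of 79 of the 81 genes from all 6 libraries (horizontal axis) and without UIRI replicate 3 (vertical axis), with filled points for an adjusted p below 0.05 without that library and the dotted line for equal values. Most effector genes outside GBP and IRG lie below the line, and 19 of these 43 are filled, compared with 0 of the 15 GBP and IRG genes. Of all genes, 1.79% were lower and 3.22% were higher at that threshold.

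The size of the differences, and with it the number of calls, depended on UIRI replicate 3. The ratio of the mean of UIRI replicates 1 and 2 to UIRI replicate 3 had a median of 1.28 over the 81 genes, 1.34 over the 43 effector genes outside GBP and IRG, 1.24 over the 15 GBP and IRG genes and 1.15 over the 21 receptor, STAT and IRF genes. It was largest for low-count Gbp11 (2.37) and, among the abundant genes, for Ifi27l2a (2.22) and Irf7 (1.99). For Ifitm1 its value lay between those of the other UIRI libraries and for Ifit3b above both. A mean of 10 or more was reached by 76 of the 81 genes, and the other 5 were Gbp11, Oas1h, Ifng, Ifngas1 and Ifi27l2b.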

How the data were processed

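Normalized expression of renal cortex was analysed in 6 libraries, 3 from UIRI mice and 3 from UIRI + BA mice, with groups read from the library labels. Per the methods, the authors used HISAT2 for alignment, FeatureCounts for counting and DESeq2 for testing. Genome build, annotation and the strand setting of the counting are not given in the sources used here. The deposited table gives each gene a signal in each library, namely its read count over a size factor: 100% of its values were whole multiples of a single step (tolerance 0.01 reads), and division by the step gave back whole reads. Each row has at least 10 reads in total. Fold change and p-value columns of the authors and their deposited enrichment tables were not used, and of the columns with library values 0 were left out. Of 19166 different symbols, 9 stood on more than 1 row and were kept apart.

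limma 3.58.1 (R 4.3.3) was fitted to log2(value + 1), a pseudocount of 1, over all 19176 rows, with a trend in the variance, no filter and no covariate. Two-sided p-values were adjusted by Benjamini-Hochberg over all rows, with a threshold of 0.05. Fold changes are on this log2 scale, which understates the change of low genes. DESeq2 1.42.0 and edgeR 4.0.16 (quasi-likelihood) took the recovered reads in alternative fits, beside quantile normalization, upper quartile scaling, a minimum mean of 10, a pseudocount of 0.1, a replicate block and each library left out. On simulated counts with 200 of 19176 genes changed by 2 on the log2 scale for UIRI + BA against UIRI, limma recovered 200 with 12 false calls, and with no gene changed it made 0 calls.

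The members, roles, pathway lists and marker lists were chosen with earlier results of these data known. Values of every library are given for the genes with an unadjusted p below 0.05, the most abundant gene per kb in each role, the ligand and receptor genes, and Stat2, Irf1, Irf7 and Irf9, with at most 10 pathway genes outside the families. Values of Ifngas1, Ifit1, Ifit2, Ifitm5, Ifitm6, Irgm2, Iigp1 and Cxcl10 were added after they were seen. All 81 symbols were found in GENCODE M21 (GRCm38), which gave positions and exon lengths, and 38 of them overlap another annotated gene, so that their reads may be shared. Promoters came from RefSeq (GRCm38.p6). Some member genes count in the totals but are not reported here by name.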

Additional observations from a re-analysis of the deposited data

How the results depend on the processing

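Over the 81 genes the median difference stayed below 0 under every alternative, and leaving out each library in turn gave -0.34 to -0.10. The number of genes at an adjusted p below 0.05 was 0 in limma with all libraries, also with quantile normalization, upper quartile scaling, the minimum mean, the other pseudocount and the replicate block, and 0 in edgeR. DESeq2 gave 2, and leaving out a library gave 0 to 21, with 21 only without UIRI replicate 3. For genes lower at an unadjusted p below 0.05 (11 in limma), the replicate block gave 26, DESeq2 17 and leaving out a library 6 to 42. For genes higher (1), leaving out a library gave 0 to 4. Genes without overlap numbered 9 to 47 lower (8 with all libraries) and 1 to 14 higher (1 with all libraries) when a library was left out. Such counts cannot fall when a library is left out, and no share of all genes is given beside them. The pathway genes outside the families (10) numbered 23 with the replicate block, 15 with DESeq2 and 3 to 38 with a library left out. Over all 19176 genes, in either direction, the count at an unadjusted p below 0.05 was 1971 in limma. It was 2106 with the replicate block, 1511 in DESeq2 and 808 to 4838 with a library left out.

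Replicate numbers share only a number: same-numbered libraries deviated from their group means with correlations of -0.24, 0.30 and 0.15 over 17249 genes and did not all match their own number best, so the block was not used for calls.

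Some small differences changed sign. Ifngr2 was at -0.0126 with quantile normalization and at -0.000425 with upper quartile scaling. Leaving out a library gave -0.0255 to 0.0654 for Ifnar1, -0.22 to 0.31 for Ifng, -0.0785 to 0.0141 for Ifngr1, -0.00623 to 0.0379 for Ifngr2, -0.17 to 0.0885 for Irf1, -0.23 to 0.0408 for Irf9 and -0.0171 to 0.17 for Irgm1. The cause was not tested. The 3 mice of each group limit what can be called.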
